A study of Homo sapiens with 4 samples.

Results

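The genes described here encode the receptor tyrosine kinases MET, AXL and FGFR1 to FGFR4 with 3 of their ligands, HGF, GAS6 and FGF2. They were listed by name, and every probe set that the array annotation assigns to one such gene symbol alone was read on all 4 arrays. All 9 genes were found among the 19775 genes on the array. They are read by 39 of its 54675 probe sets, which are small groups of oligonucleotides for a transcript, and 20 of these 39 lay above the detection floor defined below on all 4 arrays while 7 lay under it on all 4.

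A receptor tyrosine kinase spans the cell membrane, pairs up when its ligand binds outside and phosphorylates itself and its adaptors inside, which feeds the RAS-ERK, PI3K-AKT and STAT pathways. HGF, cut from an inactive precursor by serine proteases, is the ligand of MET, and GAS6, a vitamin K-dependent protein, bridges AXL to phosphatidylserine on membranes. The FGF ligands bind FGFR1 to FGFR4 together with heparan sulfate. In lung adenocarcinoma MET and AXL are known for roles in invasion and in resistance to EGFR inhibitors.

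The 4 arrays were of CL1-0 cells with a control vector, CL1-0 cells expressing AK4 vector, CL1-5 cells with a non-silencing shRNA vector and CL1-5 cells with an AK4 shRNA vector. Both are human lung adenocarcinoma lines, CL1-5 being known as an invasive subline derived from CL1-0, and AK4 is a mitochondrial adenylate kinase. All cultures, the controls included, were stably transduced and selected with puromycin, so every group carries a vector and a selection step. Each group was 1 array, so values have no replicate error, nothing could be tested, and precision is limited by the number of arrays. The labels call both lines type II alveolar cells. Of 10 marker genes of that cell type, 8 had a probe set, and 5 to 7 of these lay above the floor on an array. SFTPB, SFTPC, ABCA3, NAPSA and NKX2-1 lay above it on all 4 arrays, and SFTPD on the CL1-0 control array alone. NAPSA was brighter in CL1-5, at 19.6 and 19.2 against 9.5 and 8.99, while SFTPB, SFTPC, ABCA3 and NKX2-1 were dimmer there. The transporter SLC34A2 lay under the floor on all 4 arrays. LAMP3, at 210 and 160 in CL1-0, lay under it on both CL1-5 arrays. Of 5 epithelial markers, 2 to 4 lay above the floor on an array: EPCAM and CDH1 were above it on the AK4 vector array alone, while KRT18 read 12.1 and 10.8 in CL1-0 and 1681 and 1485 in CL1-5. Their summed signal was 36.9 and 43.6 in CL1-0 and 1997 and 1758 in CL1-5. Of 8 fibroblast and mesenchymal markers, 3 lay above the floor on each CL1-0 array and 6 on each CL1-5 array, with VIM at 4957 to 6832 and COL3A1 and LUM under the floor on all 4. Of 4 endothelial markers 1 or 2 lay above it, with PECAM1 at 45.1 and 54.0 in CL1-5 and CDH5 and KDR under it throughout. Of 4 leukocyte markers on the array 1 to 3 lay above it, with ITGAM at 23.4 and 17.7 in CL1-5 and PTPRC under it throughout. The part of these markers in the differences below was not tested.

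Values below are scaled signals, that is deposited intensities after each array was brought to a common trimmed mean, with a floor at 6.93. A ratio for which only the brighter array lay above the floor is a lower bound. A gene was read from its brightest probe set, and a difference of at least 2-fold was counted as called. Where a gene had several probe sets, their log2 ratios scattered around the mean of that gene with a pooled SD (no replicate error) of 0.85 for the comparison of the lines, 0.41 for the vector comparison and 0.22 for the shRNA comparison. AK4 itself was read against the labels: its brightest probe set, 204348_s_at, gave 115 and 111 in CL1-0 with control and AK4 vector and 1056 and 442 in CL1-5 with non-silencing and AK4 shRNA. AK4 was thus lower with its shRNA, by -1.26 on the log2 scale, and was not higher with its vector, at -0.05. Its other probe sets were at -0.879, -0.915 and -1.116 with the shRNA and at -0.131, -0.246 and -0.086 with the vector. Which part of the AK4 transcript each reads was not given, so they do not check the vector label. Directions drawn from the library labelled AK4 vector rest on its label.

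A feature of the deposited table bears on every comparison. Between the arrays of CL1-0, 4502 probe sets (8.23%) had exactly the same deposited intensity, and between those of CL1-5 it was 3287 (6.01%). Between an array of CL1-0 and an array of CL1-5, 0 of 54675 were identical. Among the identical ones were 203510_at for MET and 210755_at for HGF in CL1-5, and 213807_x_at for MET and 211398_at for FGFR2 in CL1-0. Whether the arrays of each line were summarised together and apart from the other line was not tested. The trimmed means as deposited also differed by line, at 37.5 and 36.8 in CL1-0 and 68.5 and 69.4 in CL1-5.

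**Figure D1:**
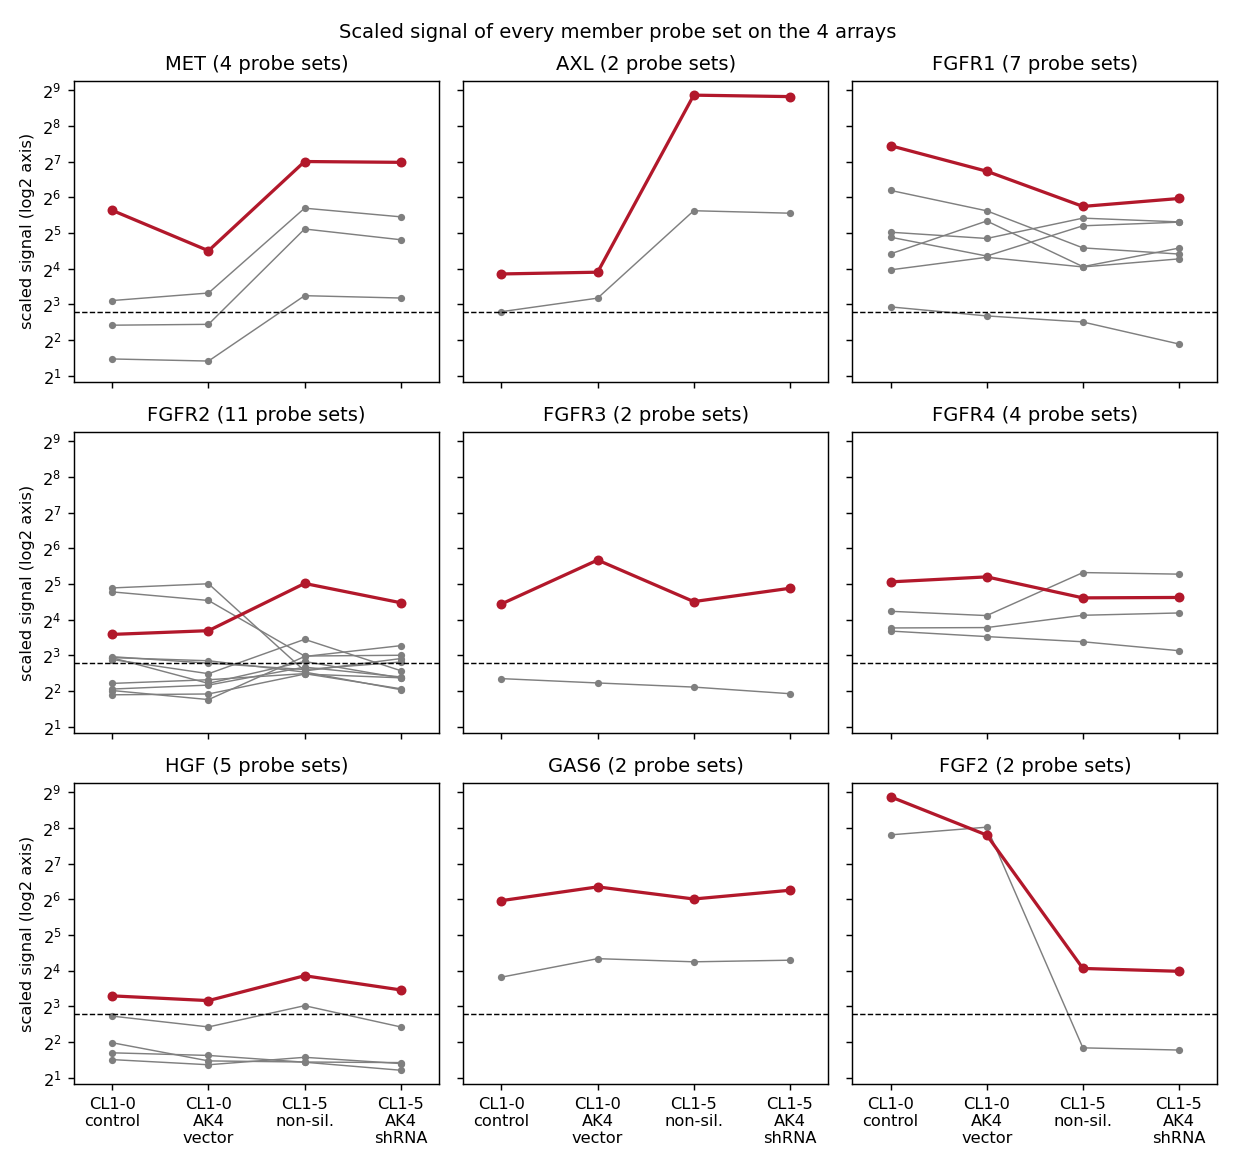
Scaled signal on a log2 axis of every probe set of the 9 genes on the 4 arrays, 1 array per group; the red line is the probe set used for the gene, grey lines are its other probe sets and the dashed line is the floor of 6.93. AXL and FGF2 differ most between the lines, with AXL at 14.4 and 14.9 in CL1-0 against 465 and 452 in CL1-5, and FGF2 at 469 and 223 against 16.7 and 15.8.

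The control arrays of CL1-5 and CL1-0 describe how these receptors differ between the lines in which AK4 was altered, and this comparison shares an array with each of the other 2. The CL1-0 control carried a control vector and the CL1-5 control a non-silencing shRNA vector. A difference called one between the lines therefore cannot be told apart from one between these vectors. AXL and MET were brighter in CL1-5, and FGF2 and FGFR1 were dimmer there. By the brightest probe set, AXL was 32.4-fold higher and MET 2.58-fold higher, while FGF2 was 28.1-fold lower and FGFR1 3.25-fold lower. FGFR2 also counted as 2-fold higher by this rule, but its probe sets disagree, as given below. In all, 3 of 9 members were at least 2-fold higher, where 17.1% of the 15970 genes measured were, and 2 of 9 were at least 2-fold lower, where 14.2% were. The median log2 ratio of the members was 0.07, beside 0.13 over all genes. The share of higher genes among the called ones was 54.6%, and it was 90.4% with the values as deposited, 26.8% with a common median and 42.9% after quantile normalization. The median ratio of all genes moved with it, to 0.83 as deposited and -0.30 with a common median. The signal at the 3' end over that at the 5' end is a quotient that grows as RNA degrades. For beta-actin it was 6.04 and 6.54 on the CL1-0 arrays and 1.34 and 1.61 on the CL1-5 arrays. For GAPDH it was 1.25 and 1.54 on the CL1-0 arrays and 1.04 and 1.07 on the CL1-5 arrays. The part of RNA quality in the differences between the lines was not tested.

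AXL, the receptor for GAS6, had, with FGF2, the largest differences among the 9 genes. Its brightest probe set, 202686_s_at, read 14.4 in CL1-0 with control vector, 14.9 with AK4 vector, 465 in the CL1-5 control with non-silencing shRNA and 452 where AK4 was silenced. Both CL1-5 arrays were thus far above both CL1-0 arrays, and within a line the signals were close. The log2 ratio between the controls was 5.02, rank 49 of 15970 genes from the top. The second probe set, 202685_s_at, read 6.92, 9.0, 49.2 and 46.9 in the same order, at least 7.10-fold higher in CL1-5. Relative to the median of all genes, the AXL ratio was 4.89, and it was 5.05 as deposited and 4.83 with a common median. In a bulk culture, a lower signal from fewer expressing cells and from less RNA per cell cannot be told apart.

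MET, the receptor for HGF, was brighter in CL1-5 on all 4 of its probe sets. The brightest, 203510_at, read 49.5 on the CL1-0 control array, 22.6 with AK4 vector, then 128 in the CL1-5 control and 126 with AK4 shRNA. Its log2 ratio between the controls was 1.37. Probe set 211599_x_at read 8.59, 9.94, 51.7 and 43.7, a 6.02-fold difference between the controls, and 213807_x_at was at least 4.97-fold and 213816_s_at at least 1.36-fold higher in CL1-5. No probe set of MET overlapped between the lines. The share of all probe sets without such overlap was not counted. Lack of overlap, here and for the genes below, therefore describes these arrays and does not set the genes apart from others. Relative to the median of all genes the ratio of 203510_at was 1.24, and it was 1.18 with a common median, where the ratio itself was 0.88 and no longer passed 2-fold.

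The ligands of these receptors differed less. HGF lay near the floor, with its brightest probe set 209961_s_at at 9.80 and 8.94 in CL1-0 and 14.5 and 11.0 in CL1-5, and 3 of its 5 probe sets lay under the floor on every array. GAS6 was present in both lines at similar signals: 1598_g_at read 62.4 and 81.5 in CL1-0 and 64.4 and 76.3 in CL1-5, and 202177_at read 14.1, 20.2, 19.0 and 19.6. The GAS6 signals of the lines overlapped on both probe sets. The log2 ratio of GAS6 between the controls was 0.05, beside a median of 0.13 over all genes. It was -0.44 beside -0.30 with a common median and -0.12 beside -0.06 after quantile normalization.

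FGF2, a ligand of the FGF receptors that lacks a classical secretion signal, differed in the opposite direction to AXL. Probe set 204421_s_at read 469 in CL1-0 with control vector, 223 with AK4 vector, 16.7 in the CL1-5 control and 15.8 with AK4 shRNA. The second, 204422_s_at, read 224, 260, 3.57 and 3.42, so both CL1-5 arrays lay under the floor and the difference between the controls was at least 32.3-fold. Both probe sets thus separated the lines without overlap. The log2 ratio of 204421_s_at was -4.81, rank 56 of 15970 from the bottom. Relative to the median of all genes it was -4.94, or -4.78 as deposited and -5.00 with a common median.

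Of the FGF receptors, FGFR1 was at least 2-fold dimmer in CL1-5 on its 2 brightest probe sets, and its other probe sets were within 2-fold. Probe set 211535_s_at read 174 and 106 in CL1-0 and 53.5 and 62.4 in CL1-5, and 226705_at read 73.0 and 49.1 against 23.9 and 21.2. Neither overlapped between the lines, with log2 ratios between the controls of -1.70 and -1.61. Of its other 5 probe sets, 3 had ratios above 0 and the range was -0.36 to 0.39. With probe sets averaged the ratio was -0.43 and with the values as deposited it was -0.83, so neither passed 2-fold. Relative to the median of all genes these were -0.613 and -1.665.

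The probe sets of FGFR2 pointed in opposite directions. The brightest on average, 208234_x_at, read 12.0 and 12.9 in CL1-0 and 32.3 and 22.2 in CL1-5, a log2 ratio of 1.43. In contrast 203638_s_at read 29.6 and 32.1 in CL1-0 and 5.90 and 7.50 in CL1-5, and 208228_s_at read 27.4 and 23.2 against 7.88 and 8.0, log2 ratios of -2.10, where the CL1-5 control lay under the floor, and -1.80. None of these 3 overlapped between the lines. The ending _x_at marks probes that may bind other genes too, and which FGFR2 transcripts each probe set reads is not stated in the sources used here. The remaining 8 probe sets lay close to or under the floor, at 3.38 to 10.9.

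FGFR3 and FGFR4 differed little between the lines by their brightest probe sets. FGFR3 was read by 204379_s_at alone, at 21.7 and 50.9 in CL1-0 and 22.7 and 29.4 in CL1-5, and these overlapped. Its second probe set lay under the floor on all 4 arrays. For FGFR4, 204579_at read 33.3 and 36.7 in CL1-0 and 24.4 and 24.6 in CL1-5, a log2 ratio of -0.45. The ratio of the gene was 0.42 with the values as deposited and 0.17 with probe sets averaged. Relative to the median of all genes these were -0.41 and -0.01. Probe set 1554962_a_at of FGFR4 went the other way, from 18.8 and 17.3 to 39.9 and 38.7, a ratio of 1.09. FGFR4 therefore has no single direction on this array.

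**Figure D2:**
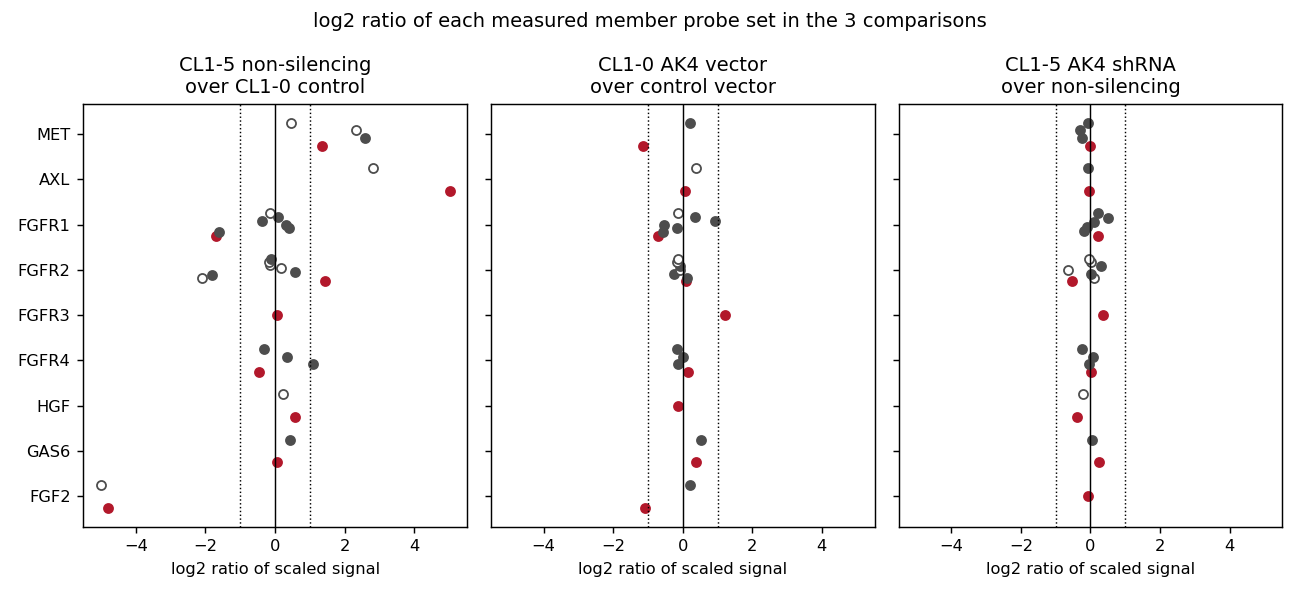
log2 ratio of scaled signal for every probe set of the 9 genes measured in each of the 3 comparisons; red marks the probe set used for the gene, open circles are ratios with 1 array under the floor and dotted lines mark 2-fold. Probe sets spread from -5.01 for FGF2 to 5.02 for AXL between the lines, and none passes 2-fold in the shRNA comparison.

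AXL and MET were brighter in CL1-5, and FGF2 was brighter in CL1-0, on every measured probe set. For 213816_s_at of MET the lower bound was 0.45, which does not reach 2-fold. The upstream sequences of these 3 members are shown to set their base composition side by side. Each is the 250 bases before the first start given in RefSeq (GRCh38.p14), 5′ to 3′ on the strand of the gene, all on the plus strand: AXL at chr19:41218973-41219222, MET at chr7:116671946-116672195 and FGF2 at chr4:122826581-122826830. Capitals mark matches on either strand to the GC box GGGCGG.
AXL: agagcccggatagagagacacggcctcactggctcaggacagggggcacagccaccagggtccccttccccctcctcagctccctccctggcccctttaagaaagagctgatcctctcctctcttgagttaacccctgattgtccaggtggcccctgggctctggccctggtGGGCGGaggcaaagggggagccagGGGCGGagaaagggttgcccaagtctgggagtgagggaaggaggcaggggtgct
MET: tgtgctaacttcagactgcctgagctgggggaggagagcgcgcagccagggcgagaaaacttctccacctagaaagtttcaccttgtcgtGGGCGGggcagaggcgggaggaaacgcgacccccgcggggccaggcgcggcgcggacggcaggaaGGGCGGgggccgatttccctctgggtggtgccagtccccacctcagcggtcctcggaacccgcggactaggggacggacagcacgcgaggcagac
FGF2: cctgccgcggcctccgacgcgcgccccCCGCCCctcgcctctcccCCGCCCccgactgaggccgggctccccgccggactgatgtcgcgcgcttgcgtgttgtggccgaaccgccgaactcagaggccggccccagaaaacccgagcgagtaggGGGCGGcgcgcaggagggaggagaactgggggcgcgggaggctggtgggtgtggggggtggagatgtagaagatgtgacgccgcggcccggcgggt

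These windows held 2 GC boxes for AXL, 2 for MET and 3 for FGF2, and 42.6% of the 35116 windows of all promoters of the same length held at least 1. The AP-1 motif TGANTCA (in 6.57% of all windows) and the TEAD motif GGAATG (in 11.9%) had no match in these 3 windows on either strand. The GC content was 64.4% for AXL, 68.4% for MET and 75.2% for FGF2, beside a median of 58% over all windows. AXL has a second start in the table, whose window held 0 GC boxes and 1 TEAD match. Promoter windows were present for 8 of the 9 members, FGFR1 being the other. A match is a description of letters only.

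The comparison in CL1-0 was of the array labelled AK4 vector with that of the control vector. AK4 itself did not read higher with its vector, as given above. By the brightest probe set, MET and FGF2 were lower and FGFR3 higher on the AK4 vector array, so labelled, at log2 ratios of -1.13, -1.07 and 1.23. That is 1 of 9 members at least 2-fold higher, where 3.22% of the 14681 genes measured were, and 2 of 9 at least 2-fold lower, where 1.16% were. The median of the members was 0.06, beside 0.05 over all genes. Of the called genes 73.4% were higher, and 62.4% after loess.

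Each of these calls rested on a single probe set. For MET, 203510_at went from 49.5 to 22.6, whereas 211599_x_at went from 8.59 to 9.94, a ratio of 0.21, and the other 2 lay under the floor on both arrays. For FGF2, 204421_s_at went from 469 to 223, whereas 204422_s_at went from 224 to 260, a ratio of 0.22. Both probe sets of FGF2 were bright on both arrays, and neither lay near the floor. For FGFR3, 204379_s_at went from 21.7 to 50.9 and its other probe set was not above the floor. With probe sets averaged the ratios were -0.23 for MET, -0.43 for FGF2 and 0.62 for FGFR3, and none passed 2-fold. After quantile normalization FGF2 was at -0.98 and FGFR3 at 0.98. The beta-actin and other array values given above apply here too, and the same quotient for GAPDH was 1.25 and 1.54 on these arrays.

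The other members stayed within 2-fold on every measured probe set in CL1-0. FGFR1 had ratios of -0.72 and -0.57 on its 2 brightest probe sets and 0.92 on 222164_at, which went from 21.3 to 40.3. GAS6 had ratios of 0.39 and 0.51 on its 2 probe sets. AXL, at 0.06, lay between -0.05 and 0.22 over the alternatives, and HGF was at -0.13. The 7 measured probe sets of FGFR2 ranged from -0.24 to 0.12, and the 4 of FGFR4 from -0.16 to 0.14.

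The comparison in CL1-5 asked what differs with AK4 shRNA, and here no member differed by 2-fold. AK4 was lowered only in part, from 1056 to 442 on 204348_s_at, beside 115 and 111 in CL1-0. Of the 9 members, 0 were at least 2-fold higher, where 0.0914% of the 15321 genes measured were, and 0 were at least 2-fold lower, where 0.0131% were. The median of the members was -0.02, beside -0.001 over all genes. No test was possible, so these values do not show that the genes are unaffected.

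AXL and MET, the receptors that were bright in this line, had ratios of -0.04 and -0.02 with AK4 shRNA. That of MET is the ratio of the scaling factors alone, since 203510_at had the same deposited intensity on both arrays. The other 3 probe sets of MET had ratios of -0.24, -0.30 and -0.07. The largest ratios of a gene were those of FGFR2 (208234_x_at, from 32.3 to 22.2, a ratio of -0.54, while 4 of its 7 measured probe sets were above 0 and the gene was at -0.07 with all its probe sets averaged), HGF (-0.39, close to the floor) and FGFR3 (0.37, from 22.7 to 29.4). GAS6 was at 0.24, from 64.4 to 76.3, and FGFR1 at 0.22, from 53.5 to 62.4, but its second probe set 226705_at was at -0.17. FGFR4 was at 0.01 and FGF2, at 16.7 and 15.8, at -0.08. Ratios this close to 0 changed sign with the processing for AXL (-0.06 to 0.01 over the alternatives), MET (-0.16 to 0.03), FGFR4 (-0.05 to 0.06) and FGFR1 (-0.17 to 0.27).

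Genes around these receptors were described through 7 lists with 92 distinct genes, of which 89 had a probe set. Each list is described by its counts and median, with values for single genes named from it. Between the control arrays, the feedback inhibitors and target genes of FGF and ERK signalling were split. Of 16 measured, 4 passed 2-fold upward in CL1-5 and 7 downward, where 17.1% and 14.2% of all genes did. The median of the list was -0.43 beside 0.13 over all genes. With the values as deposited it was 0.35 beside 0.83, so it stayed below that of all genes. When probe sets named _x_at or _s_at were left out it was 0.40 beside 0.15. DUSP6, a phosphatase that inactivates ERK and is a target of FGF signalling, read 2558 and 2356 in CL1-0 and 84.8 and 85.3 in CL1-5, a log2 ratio of -4.92. Its 3 measured probe sets ranged from -5.06 to -3.31. The transcription factor ETV1 was at -3.20 and the feedback inhibitor SPRY2 at -2.16. DUSP5, an ERK phosphatase of the nucleus, went the other way, from 18.2 and 11.7 in CL1-0 to 975 and 954 in CL1-5, a ratio of 5.75, and DUSP4 was at 3.88. FOSL1, a subunit of AP-1, was higher in CL1-5 by 1.74. The direction and the 2-fold call of these 6 genes held under all 8 processing alternatives.

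Of 15 measured co-receptors, adaptors and ligand-binding proteins of FGF receptors, 6 passed 2-fold upward in CL1-5 (17.1% of all genes did) and 1 downward (14.2% did), and 10 were above 0. The median was 0.86 beside 0.13 over all genes. It was -0.25 beside -0.30 with a common median and -0.21 beside -0.06 after quantile normalization. The heparan sulfate carriers SDC1, SDC4 and HSPG2 were at 4.04, 2.66 and 2.42, but the other measured probe set of HSPG2 was at 0.28. SDC1 read 43.8 and 46.7 in CL1-0 and 718 and 724 in CL1-5. SDC3, the gene past 2-fold downward, was at -1.03, or -0.16 as deposited beside 0.83 over all genes, and its other probe set was at 0.80. The adhesion protein CDH2, known to bind FGFR1, read 3.03 and 3.53 in CL1-0, under the floor, and 36.6 and 33.4 in CL1-5; it is named here after its values were seen.

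In the list around HGF and MET, 4 of 17 measured genes passed 2-fold upward in CL1-5 and 2 downward, where 17.1% and 14.2% of all genes did. The median was -0.52, beside 0.13 over all genes. It was 0.36 beside 0.83 as deposited and 0.04 beside 0.18 with probe sets averaged, so it stayed below that of all genes. CD44, whose splice variants act as MET co-receptors, was under the floor in CL1-0, at 2.67 and 2.71, and read 781 and 942 in CL1-5. All 9 of its measured probe sets were higher in CL1-5. The inhibitors of HGF-activating proteases parted: SPINT2 read 34.8 and 60.2 in CL1-0 and 8.76 and 7.10 in CL1-5, while SPINT1 was higher by 1.37 and passed 2-fold under 3 of 8 alternatives. The ubiquitin ligase CBLB was at -2.18, or -0.85 with probe sets averaged. HPN and MST1R, a protease and the receptor related to MET, read at most 17.7 on any array.

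Around AXL, 4 of 12 measured genes passed 2-fold upward and 2 downward, where 17.1% and 14.2% of all genes did. The median was 0.50 beside 0.13 over all genes, and it was 0.01 beside -0.30 with a common median and 1.35 beside 0.83 as deposited. The receptors related to AXL differed in direction. TYRO3 was higher in CL1-5, at 54.2 and 47.4 against 25.4 and 22.2, and MERTK was lower, at 14.1 and 16.6 against 52.2 and 42.8. TYRO3 was called under 4 of 7 alternatives and MERTK under 6 of 7, and the second probe set of MERTK was at 0.07. PROS1, the other ligand of these receptors, was at 0.01. The cytokine signalling inhibitor SOCS3 was higher by 2.70, with its lowest probe set at 0.55, and LGALS3, a galectin that binds MERTK, by 2.22. The sheddase ADAM17 was at -1.43. It was at -0.56 as deposited and -0.74 with probe sets averaged, where all genes had medians of 0.83 and 0.18.

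FGF ligands other than FGF2 were dim. Of 17 genes 3 lay under the floor on all 4 arrays, and the brightest probe set of none exceeded a signal of 37.2. Between the controls 3 of 14 measured passed 2-fold upward in CL1-5, near the 17.1% of all genes, and 0 downward, where 14.2% did, with FGF22 at 1.63, FGF17 at 1.14 and FGF1 at 1.87 as a lower bound. FGF22 was at 0.72 with probe sets averaged, and a probe set of it was at -0.03. FGF17 was at 0.19 and FGF1 at 0.59 with a higher floor (60th percentile). In the 2 comparisons of AK4, FOSL1 alone passed 2-fold among the genes of these lists: with control vector it read 197 and with AK4 vector 41.5, a ratio of -2.25. Of all genes, 3.22% were called higher and 1.16% lower in the vector comparison. In the shRNA comparison 0.0914% were higher and 0.0131% lower. A single call among so many listed genes is not read as a result about the lists.

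**Figure D3:**
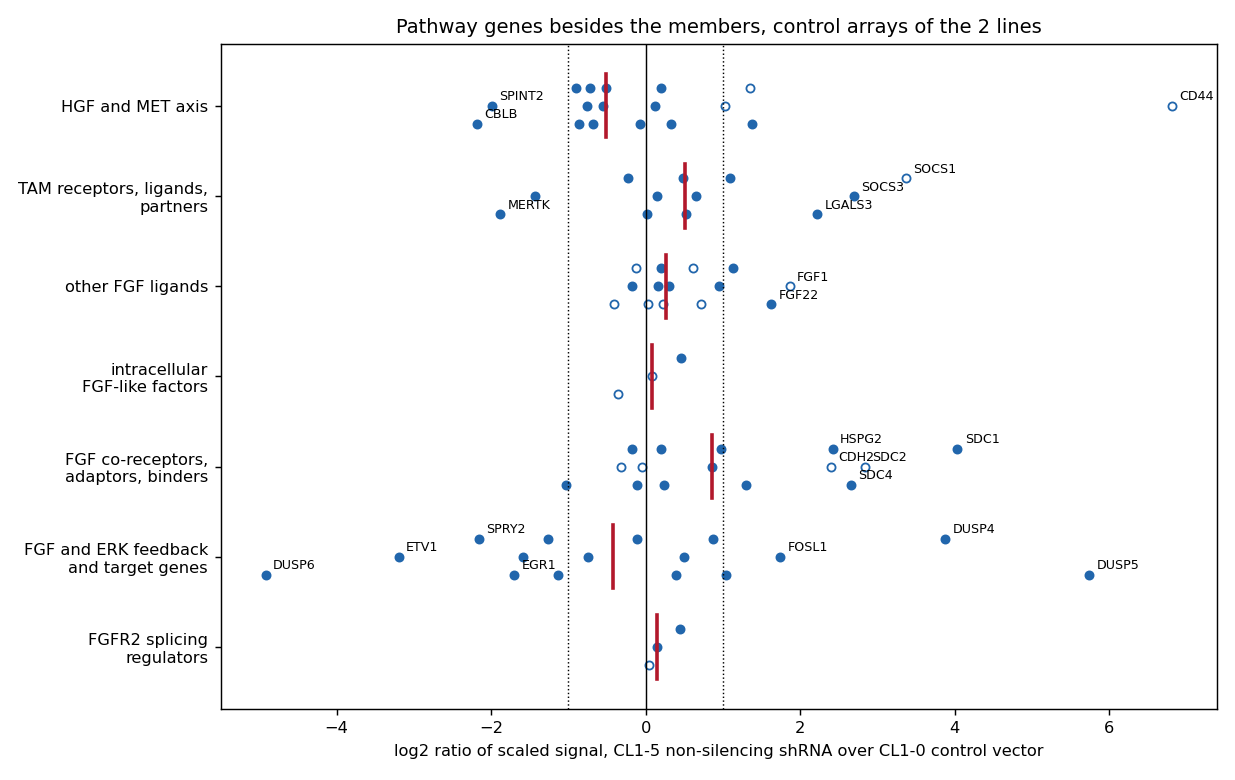
log2 ratio between the control arrays of CL1-5 and CL1-0 for the measured genes of each list, with the red bar at the median of the list, open circles where 1 array lay under the floor, names beyond a log2 ratio of 1.6 and dotted lines at 2-fold. The feedback list spreads from -4.92 for DUSP6 to 5.75 for DUSP5.

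For each member the genes of most like pattern were sought among the 12806 genes above the floor on all 4 arrays, by the Euclidean distance between log2 levels after subtracting the mean of each gene. With 4 arrays of 2 lines, such likeness is a description of few points. Each gene was read from its brightest probe set, so a pattern is that of a single probe set. Other probe sets of FGF2, MET, FGFR1, FGFR2 and FGFR4 differed from it in direction in a comparison, as given above. Nearest to AXL were TSPYL5 (distance 0.08), at 14.9 and 16.7 in CL1-0 and 504 and 499 in CL1-5, and S100A16 (0.13). Nearest to FGF2 were HMOX1, heme oxygenase, and DDIT3, a stress-induced transcription factor, at distances of 0.36 and 0.39. HMOX1 read 2991 and 1462 in CL1-0 and 115 and 138 in CL1-5. Nearest to MET were NRCAM (0.18) and the glycolytic enzyme PKM (0.23), and nearest to FGFR1 were ZFP36 (0.06) and DNAJB9 (0.07). The 2 nearest genes of the flatter or dimmer members were EFR3A and GPR27 for GAS6, GOLGA8N and SEPTIN6 for FGFR3, HAGH and KIR2DL1 for FGFR4, CPLX2 and IL1RL1 for FGFR2 and KLHL6 and DUS3L for HGF, all at distances of at most 0.12.

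**Figure D4:**
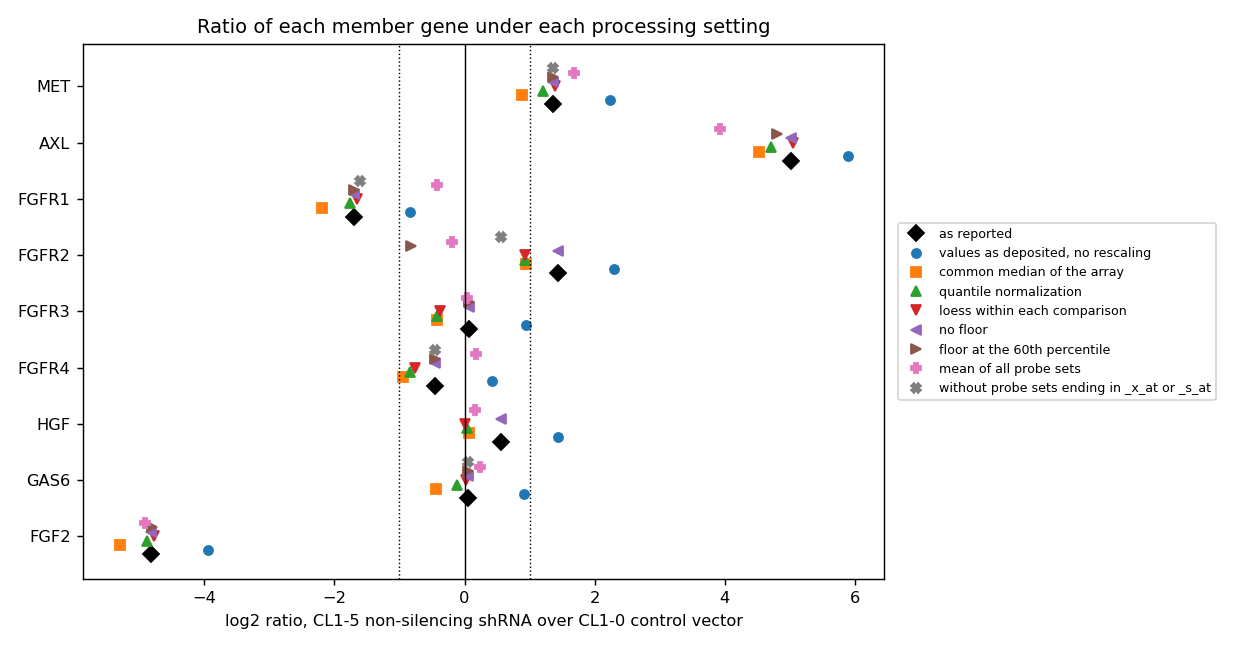
log2 ratio between the control arrays of CL1-5 and CL1-0 for each member gene as reported (black) and under each of the 8 processing alternatives that gave a value, with dotted lines at 2-fold. AXL stays between 3.92 and 5.89, FGF2 between -5.30 and -3.94 and MET between 0.88 and 2.24, while FGFR2 runs from -0.83 to 2.30.

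Across all settings, AXL passed 2-fold upward in CL1-5 and FGF2 downward under each of the 7 alternatives that gave a value, and MET was at least 2-fold higher under 7 of 8. FGFR1 was below 0 under all 8 and past 2-fold under 6. FGFR2 passed 2-fold higher under 2 of 8 and was below 0 under 2.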

How the data were processed

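RNA of 4 cultures, 1 per group, was labelled with biotin and hybridised to Affymetrix arrays in 1 colour, per the labels' protocols. The authors deposited linear intensities for each probe set, without detection calls. MAS5 is named in the submitters' processing notes; its part in making the table, the scaling and the background correction are not stated there. From these values each array was brought to a common mean with 2% trimmed at each end, leaving out 62 control probe sets. Values under the 40th percentile of all scaled values (6.93) were raised to it ahead of the log2 step. Of the probe sets, 41097 had 1 gene symbol, 1801 several and the rest none; 99.9% of symbols were brought up to date by gene identifier. A gene was read from the probe set with the highest mean log2 level and counted as measured in a comparison where at least 1 array lay above the floor. Python 3.11.15, pandas 2.3.3, numpy 2.4.6, scipy 1.17.1 and statsmodels 0.14.6 were used, and the procedure was tested on simulated data. The 8 alternatives changed the scaling (as deposited, common median, quantile, loess), the floor (none, 60th percentile) or the choice of probe set (mean, or leaving out names in _x_at or _s_at). The named genes were the members with all probe sets, AK4 and up to 3 called genes per list, direction and comparison. The 2 genes of nearest pattern per member were named too. PROS1, FGF11, FGF13 and the cell type markers were named outside this rule. Others are marked where they appear or complete a count. The members and lists were chosen with earlier results of these data known.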

Additional observations from a re-analysis of the deposited data

How the results depend on the processing

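Of 96 values of counts under the alternatives, 75 stayed within 1.5 times the reported count. With the probe sets of a gene averaged, 247 genes were higher in the vector comparison against 473, 5 were higher and 1 lower in the shRNA comparison against 14 and 2, and 1364 were lower between the lines against 2272. As deposited, 7224 genes were higher and 771 lower between the lines against 2736 and 2272, with a common median 1425 and 3902, and with a higher floor (60th percentile) 1763 were higher. When probe sets named _x_at or _s_at were left out, 1 gene was lower in the shRNA comparison. Of the members in the vector comparison, 0 were higher under quantile normalization, probe sets averaged and without those probe sets, against 1. There 1, 0 and 1 were lower under the same settings, against 2. Between the lines 1 member was higher with a common median and without those probe sets, against 3, and 1 was lower as deposited, with probe sets averaged and without those probe sets, against 2. FGFR2 reversed between the lines to -0.83 with a higher floor (60th percentile), where another probe set was brightest, and to -0.19 with probe sets averaged. AXL, FGF2, HGF and FGFR3 had no value when those were left out. No paired analysis was possible because each group held 1 array. Signals near the floor limit HGF and most probe sets of FGFR2.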

Other observations

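Further lists around the FGF receptors held few measured genes. ESRP1, RBFOX2 and PTBP1, regulators of the alternative FGFR2 exons, had ratios of 0.04, 0.45 and 0.15 between the control arrays. In the vector comparison 2 of these were measured, ESRP1 being under the floor on both arrays, and 3 were measured in the other comparisons. In each comparison 0 of those measured passed 2-fold. Of all genes, 17.1% were higher and 14.2% lower between the lines. In the vector comparison these shares were 3.22% and 1.16%, and in the shRNA comparison 0.0914% and 0.0131%. ESRP1, the epithelial regulator, read 4.79 and 5.14 in CL1-0, under the floor, and 7.11 and 9.74 in CL1-5. Of the intracellular FGF-like factors, FGF11 was the brightest, at 59.4 and 86.4 in CL1-0 and 81.3 and 90.9 in CL1-5, and FGF13 lay under the floor on all 4 arrays.

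In the vector comparison, the feedback and target genes of FGF and ERK had a median of -0.40 over 16 measured genes, beside 0.05 over all genes. Of these 16, 4 were above 0 and 1 was at least 2-fold lower, where 1.16% of all genes were. The median lay between -0.46 and -0.22 under the 8 alternatives. In the shRNA comparison the same list had a median of 0.01, beside -0.001 over all genes, with 10 of 16 above 0. The share of all genes above 0 was not counted for either comparison. IL17RD, an inhibitor of FGF signalling, was above 0 in both comparisons, at 0.84 and 0.51; it was picked after its values were seen.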
